A study of Homo sapiens with 6 samples.

Results

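The mRNAs described here encode the m6A writers and erasers, the enzymes and their partner proteins that put N6-methyladenosine on RNA and take it off again. They comprised 8 writers, *METTL3*, *METTL14*, *WTAP*, *VIRMA*, *RBM15*, *RBM15B*, *ZC3H13* and *CBLL1*, and 2 erasers, *FTO* and *ALKBH5*. Each was chosen by its gene name among the 60655 genes of the count table, and all 10 were found and were among the 14507 genes that passed the filter on low counts and were tested. The libraries came from RNA immunoprecipitation sequencing (RIP-seq) of WaGa cells, an established Merkel cell carcinoma (MCC) line that carries Merkel cell polyomavirus (MCPyV), and the method reads out the RNA held by an antibody-bound protein. The cells were of wild-type genotype, grew in RPMI medium with fetal bovine serum and received no treatment, and only the antibody differed between the groups. There were 3 libraries from IP with an IGF2BP3 antibody and 3 from IP with IgG, the negative control. The comparison asked which RNAs came down with IGF2BP3 more than with IgG. All 6 libraries came from this 1 cell line, and RNA from whole lysate was not analysed here.

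In mammalian cells most m6A on mRNA is written by a nuclear complex. METTL3 is its catalytic subunit and METTL14 is the partner that helps METTL3 hold the RNA. WTAP, VIRMA, ZC3H13, CBLL1 and the paralogs RBM15 and RBM15B form the regulatory part that places the complex in the nucleus and on its substrates. FTO and ALKBH5 are iron-dependent dioxygenases that remove the methyl group. IGF2BP3 is one of the proteins described as m6A readers, so the question for these transcripts was whether the mRNAs of the methylation machinery came down with a reader.

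None of the 10 mRNAs was enriched in the IGF2BP3 IP and none was lower. A call needed a change of 1.5-fold or more together with an adjusted p-value (Benjamini-Hochberg) under 0.05 in edgeR's quasi-likelihood test. Over all tested genes, 169 RNAs were enriched, or 1.16%, and 0 were lower, while without adjustment of the p-value 558 passed upwards and 59 downwards. None of the writers and erasers was among those either, and DESeq2 called 0 of the 10. With the replicate number as a block 517 RNAs were enriched and 15 lower, and with 1 library left out the number enriched ran from 0 (without IGF2BP3 IP replicate 2) to 244, but 0 of the 10 were called in any of these fits. For all 10 the 95% confidence interval of the fold change lay inside 1.5-fold in both directions, which held for 53.7% of the tested genes. The 10 were among the more abundant, with 66.3% (*ZC3H13*) to 97.1% (*WTAP*) of the tested genes at a lower level. The share among genes of like level was not computed. The interval bounds ran from -0.42 to 0.44 on the log2 scale. A modestly higher level of *FTO* and a modestly lower level of *METTL14* in the IGF2BP3 IP were the 2 differences with an unadjusted p-value under 0.05, a level that 12.8% of the tested genes reached.

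The complex methylates adenosines within short motifs, of which GGAC is the best known core. Coding windows of 60 bases are shown for the catalytic subunit, for its partner, which had the lowest fold change of the writers, and for both erasers. In each gene the window is the one inside a single coding exon of the canonical transcript with the most GGAC, so the motif was used to choose it. They are written 5′ to 3′ on the strand of the mRNA from GRCh38 with the gene models of GENCODE version 44, with GGAC in capitals. They lie at chr14:21511164-21511223 in exon 1 of 11 of *METTL3* (minus strand), chr4:118691981-118692040 in exon 5 of 11 of *METTL14* (plus strand), chr16:53826257-53826316 in exon 3 of 9 of *FTO* (plus strand) and chr17:18184247-18184306 in exon 1 of 4 of *ALKBH5* (plus strand).
METTL3: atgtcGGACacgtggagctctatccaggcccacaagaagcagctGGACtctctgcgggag
METTL14: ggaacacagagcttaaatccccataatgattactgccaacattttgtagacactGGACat
FTO: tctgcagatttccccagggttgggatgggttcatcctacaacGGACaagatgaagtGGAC
ALKBH5: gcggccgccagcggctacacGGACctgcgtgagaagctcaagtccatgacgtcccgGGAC
GGAC occurs 2 times in the windows of *METTL3*, *FTO* and *ALKBH5*, and 1 time in that of *METTL14*. Of 364351 coding windows of the same length in the tested genes, 24.0% held at least 1 GGAC and 3.33% at least 2. Those windows lay end to end along the coding sequence and were not chosen for GGAC. Their shares therefore do not say how unusual the printed windows are. Only the mRNA strand was searched and no other motif is marked. A match describes the letters and is not a methylated site.

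The libraries held between 9758759 and 14886414 counts on genes. The libraries numbered 1 stood apart in both groups, with a chi-square per degree of freedom of 16.3 to 19.7 against replicates 2 and 3, where replicates 2 and 3 differed by 2.13 in the IgG IP and 3.06 in the IGF2BP3 IP. The label of the line was checked against its markers. Of 10 markers of MCC lines, 9 were above 1 TPM (transcripts scaled to library and length) in every library, among them *KRT20* at 430 to 633 TPM, and *NEUROD1* was at 0 to 0.09. The summed TPM of the 10 ran from 2030 to 3071 in the IgG IP and from 2421 to 3176 in the IGF2BP3 IP. The large T gene of MCPyV was at 126 to 207 TPM. Of the markers of other cells, *KRT14*, *PTPRC* and *CD3E* were listed at 0, *COL1A1* at 0 to 0.32 TPM, *COL1A2* at 0 to 0.05, *CD14* at 0.09 to 0.33 and *KRT5* at 0.54 to 1.33, while the fibroblast marker *DCN* was at 29.2 to 54.1 TPM, 29.2 to 47.3 in the IGF2BP3 IP and 35.8 to 54.1 in the IgG IP. Its part in the results was not tested.

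The levels of the 10 mRNAs were set side by side in TPM, which allow for the transcript lengths used in the quantification. Those lengths are not given and need not be the canonical ones. In IgG IP replicate 1, *FTO* held 1389 counts at 70.7 TPM, and *VIRMA* 1279 counts at 28.7 TPM. The canonical transcript of *FTO* is nonetheless the longer, with 11573 bases against 6478. The order by TPM therefore depends on the lengths used. *WTAP* had the highest level, with 246.9 ± 46.4 TPM (SD, n = 3) in the IgG IP and 255 ± 37.4 TPM (SD, n = 3) in the IGF2BP3 IP, apart from every other member in both groups. *FTO* came next with 87.7 ± 14.9 TPM (SD, n = 3) in the IgG IP and 117 ± 6.96 TPM (SD, n = 3) in the IGF2BP3 IP. In the IgG IP *METTL14* (55.4), *CBLL1* (50.2), *VIRMA* (37.4), *METTL3* (29.7), *ALKBH5* (21.3), *RBM15* (17.7), *RBM15B* (13.03) and *ZC3H13* (10.4) followed by mean TPM. The ranges of the 3 libraries did not overlap between *WTAP* and *FTO*, between *CBLL1* and *VIRMA*, and between *METTL3* and *ALKBH5*. The other neighbours in that order overlapped. Even so, *FTO* was above *METTL14*, *ALKBH5* above *RBM15*, and *RBM15* above *RBM15B* in all 3 IgG IP libraries. In the IGF2BP3 IP the order was the same except that *CBLL1* (55.2 TPM) came before *METTL14* (53.0 TPM), and those overlapped. Within libraries, *METTL14* was above *CBLL1* in 1 of 3 of the IgG IP, and *CBLL1* above *METTL14* in 2 of 3 of the IGF2BP3 IP. Without IgG IP replicate 2, 8 of the 10 kept their rank in the IgG IP. There the separate neighbours were *WTAP* and *FTO*, *FTO* and *CBLL1*, *METTL3* and *ALKBH5*, and *ALKBH5* and *RBM15*. By TPM the catalytic pair thus stood in the middle of the list, and the mRNA of the scaffold subunit *ZC3H13* was the lowest in both IPs.

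**Figure D1:**
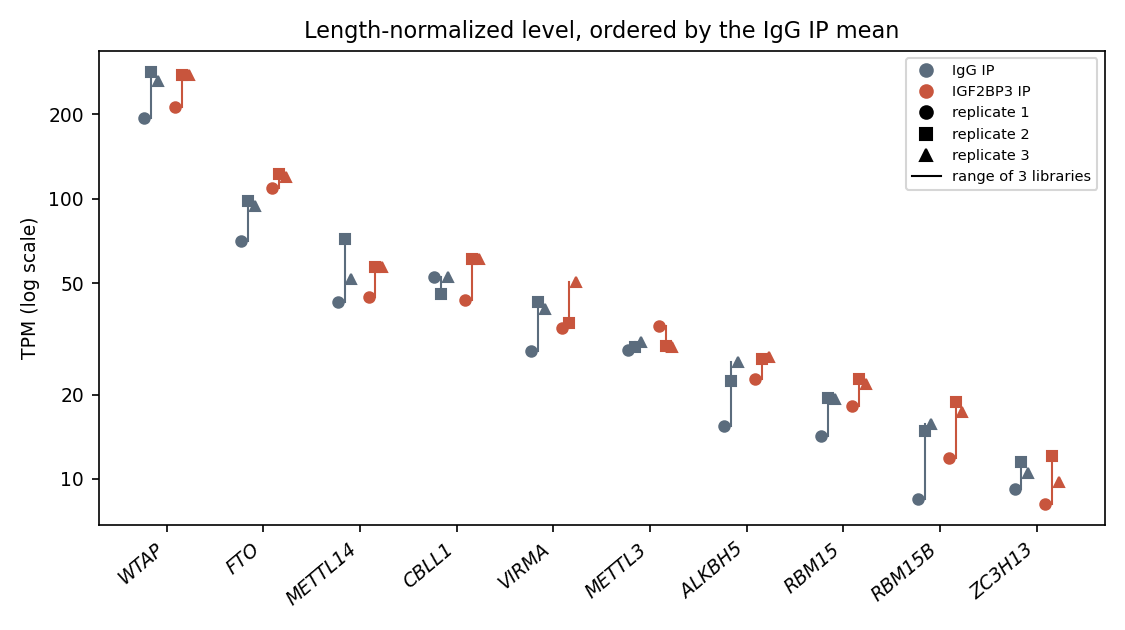
TPM on a log axis for the 10 mRNAs in each of the 6 libraries, ordered from left to right by their mean in the IgG IP. Symbols mark the replicate number, colours the antibody, and lines the range of 3 libraries. *WTAP* lies above the other members in every library, and *FTO* is the only member whose TPM in all IGF2BP3 IP libraries (109 to 122.9) lies above those in all IgG IP libraries (70.7 to 98.3).

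The catalytic subunit *METTL3* (ENSG00000165819.12) lies at chr14:21498133-21511342 (GRCh38, minus strand) and its canonical transcript has 11 exons. Replicates 1, 2 and 3 measured 51.8, 41.7 and 44.5 normalized CPM (counts per library size after TMM normalization) with IgG, against 56.0, 39.6 and 38.5 with the IGF2BP3 antibody. The replicate 1 library was the highest of both groups and the groups overlapped. The fitted change was -0.04 on the log2 scale (standard error 0.16, adjusted p = 0.95 in edgeR's quasi-likelihood test), with a 95% interval from -0.40 to 0.32, the widest of the 10. Without the IGF2BP3 IP replicate 1 library the log2 fold change was -0.23, and without IgG IP replicate 1 it was 0.05, so its sign changed with the library left out. *METTL3* shares 1043 bases with *TOX4* on the opposite strand, which held 1602 to 2583 counts against 474 to 667 on *METTL3* and was at 0.0058 on the log2 scale (adjusted p = 0.99).

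*METTL14* (ENSG00000145388.15), the RNA-binding partner of METTL3, lies at chr4:118685392-118715433 (plus strand) and has 11 exons. The IgG IP libraries gave 86.3, 80.8 and 74.3 normalized CPM for replicates 1, 2 and 3, whereas the IGF2BP3 IP libraries gave 71.1, 69.8 and 66.7. Every IGF2BP3 IP library was below every IgG IP library. The group means were 80.4 ± 6.01 and 69.2 ± 2.29 (SD, n = 3), or -0.22 on the log2 scale (standard error 0.09, unadjusted p = 0.036, adjusted p = 0.35 in edgeR). Of the tested genes 12.2% had a lower log2 fold change. The fit blocked by replicate number gave -0.21 with an adjusted p of 0.028, still within the 1.5-fold minimum. *METTL14* was thus 1 of the 5.23% of tested genes that were lower at an adjusted p-value under 0.05 in the blocked fit. With a correction for GC content the value was -0.13 (adjusted p = 0.68 in edgeR), and with the block as well it was -0.13 (adjusted p = 0.22). On the log2(TPM + 1) scale it was -0.04, where the median of all tested genes was 0.11.

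*WTAP* (ENSG00000146457.16), the adaptor that binds the catalytic pair, lies at chr6:159725585-159756319 (plus strand) and has 8 exons. With IgG the libraries held 393, 399.8 and 378 normalized CPM of it, and with the IGF2BP3 antibody 362, 360.3 and 373. All 3 IGF2BP3 IP libraries were below all 3 IgG IP libraries. This amounted to -0.10 on the log2 scale (standard error 0.07, adjusted p = 0.62 in edgeR). The gene body overlaps *SOD2* on the opposite strand over 30735 bases. *SOD2* held 2036 to 3200 counts, against 3626 to 5966 on *WTAP*, and its own log2 fold change was -0.11 (adjusted p = 0.58). Whether the counting used the strand is not stated in the sources used here, so reads of the 2 genes cannot be told apart where their exons overlap. The same holds for the other opposite-strand pairs, with *TOX4*, *DCAF1* and *RPGRIP1L*, and for noncoding genes of at most 38 counts per library over *RBM15*, *ZC3H13*, *CBLL1* and *ALKBH5*.

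*VIRMA* (ENSG00000164944.12), the large scaffold of the regulatory part, lies at chr8:94487689-94553529 (minus strand) and has 24 exons. Its normalized CPM were 138.6, 142.7 and 134.8 with IgG, against 144.6, 143.9 and 140.5 with the IGF2BP3 antibody. The groups overlapped, since IgG IP replicate 2 was above IGF2BP3 IP replicate 3. Between them lay 0.04 on the log2 scale (standard error 0.07, adjusted p = 0.85 in edgeR).

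The paralogs RBM15 and RBM15B bind RNA and recruit the complex to it. *RBM15* (ENSG00000162775.17, chr1:110338506-110346681, plus strand, 3 exons) measured 83.4, 78.2 and 78.6 normalized CPM with IgG, against 79.7, 81.6 and 79.4 with the IGF2BP3 antibody. The means of 80.0 ± 2.88 and 80.2 ± 1.18 (SD, n = 3) differed by less than the spread between libraries, with a fold change of 1.00 and a 95% interval from -0.17 to 0.18 on the log2 scale. *RBM15B* (ENSG00000259956.2, chr3:51391285-51397908, plus strand, 1 exon) measured 67.4, 82.3 and 87.4 normalized CPM with IgG, against 78.8, 92.2 and 92.0 with the IGF2BP3 antibody. Here replicate 1 was the lowest library of both groups, and each IGF2BP3 IP library was above the IgG IP library of its number while the groups overlapped. For *RBM15B* the fit gave 0.15 on the log2 scale (standard error 0.12, adjusted p = 0.64 in edgeR). It shares 2042 bases with *DCAF1* on the opposite strand (418 to 916 counts, log2 fold change -0.08, adjusted p = 0.88).

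*ZC3H13* (ENSG00000123200.17), which anchors the complex in the nucleus, lies at chr13:45954465-46052759 (minus strand) and has 19 exons. The IgG IP libraries gave 41.7, 42.1 and 47.4 normalized CPM, whereas the IGF2BP3 IP libraries gave 40.6, 41.6 and 40.5. The groups did not overlap, though IgG IP replicate 1 was barely above IGF2BP3 IP replicate 2, and IgG IP replicate 3 was the highest library. The fit gave -0.10 on the log2 scale for *ZC3H13* (standard error 0.09, adjusted p = 0.72 in edgeR). *CBLL1* (ENSG00000105879.12), also called HAKAI, a RING finger protein of the regulatory part, lies at chr7:107743073-107761667 (plus strand) and has 6 exons. Normalized CPM of *CBLL1* were 81.8, 73.9 and 74.8 with IgG, against 82.1, 81.0 and 82.7 with the IGF2BP3 antibody. IgG IP replicate 1 lay among the IGF2BP3 IP libraries. The fit gave 0.09 on the log2 scale for *CBLL1* (standard error 0.08, adjusted p = 0.68 in edgeR).

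*FTO* (ENSG00000140718.21), the demethylase first known from its association with body mass, lies at chr16:53701692-54158512 (plus strand) and has 9 exons. The IgG IP libraries gave 150.6, 142.3 and 143.0 normalized CPM for replicates 1, 2 and 3, whereas the IGF2BP3 IP libraries gave 188.5, 167.6 and 160.9. Every IGF2BP3 IP library was above every IgG IP library. The means of 145 ± 4.59 and 172 ± 14.4 (SD, n = 3) gave a fold change of 1.19 with a 95% interval from 1.04 to 1.36. On the log2 scale this was 0.25 (standard error 0.08, unadjusted p = 0.018, adjusted p = 0.26 in edgeR), and 79.8% of the tested genes had a lower one. With the replicate number as a block it was 0.24 with an adjusted p of 0.0053, still below the 1.5-fold minimum, where 10.9% of the tested genes were higher at an adjusted p-value under 0.05. The correction for GC content left the value at 0.24 (adjusted p = 0.39). *FTO* shares 2247 bases with *RPGRIP1L* on the opposite strand, which held 4350 to 5760 counts against 1389 to 2245 on *FTO* and was itself at -0.19 on the log2 scale (adjusted p = 0.68).

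*ALKBH5* (ENSG00000091542.9), the nuclear eraser, lies at chr17:18183078-18209954 (plus strand) and has 4 exons. With IgG the libraries held 56.7, 57.8 and 66.8 normalized CPM of it, and with the IGF2BP3 antibody 70.5, 62.3 and 66.3. IgG IP replicate 3 lay above replicates 2 and 3 of the IGF2BP3 IP. The fit gave 0.14 on the log2 scale (standard error 0.10, adjusted p = 0.62 in edgeR), and with the correction for GC content it was -0.03.

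**Figure D2:**
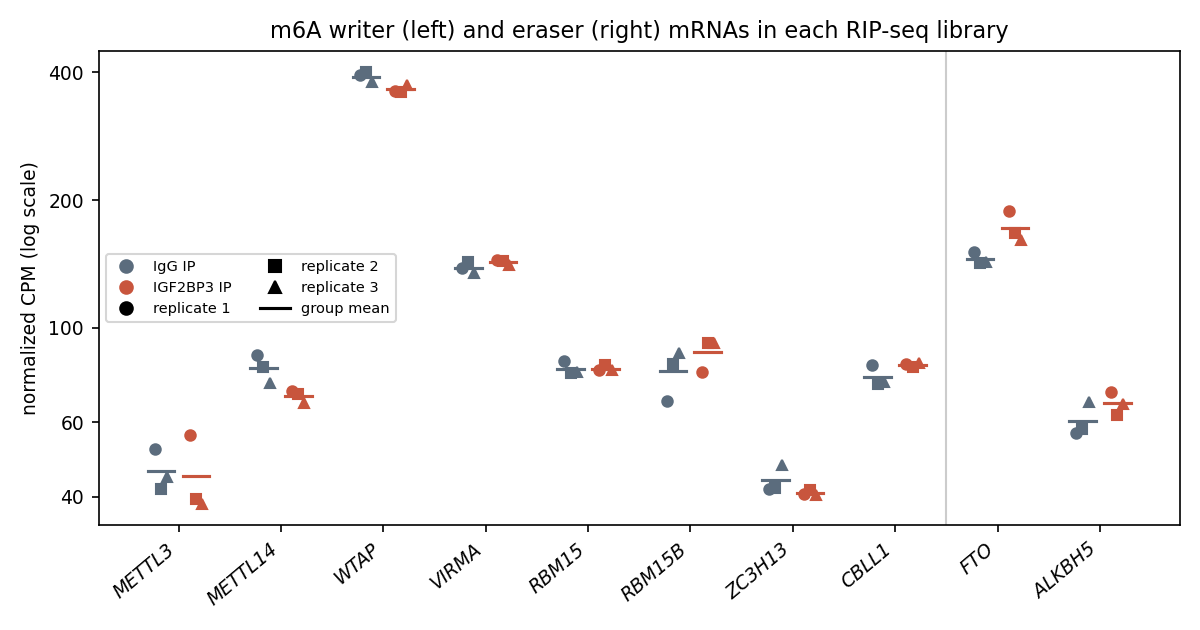
Normalized CPM on a log axis for the 8 writers and, right of the grey line, the 2 erasers. Each symbol is 1 library, with its shape giving the replicate number and its colour the antibody, and short lines are group means. The 2 groups do not overlap for *METTL14*, *WTAP*, *ZC3H13* and *FTO*, and *METTL3* is highest in the libraries numbered 1.

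Across the 10 mRNAs, 6 had a log2 fold change above 0 and 4 below 0. Their median was 0.02, beside -0.01 over all tested genes, and the median of their absolute values was 0.10, beside 0.15. Most tested genes had a lower level than each of the 10, and genes of like level were not compared. Only *FTO* had every IGF2BP3 IP library above every IgG IP library, an order that 12.0% of the tested genes showed. The opposite order held for *METTL14*, *WTAP* and *ZC3H13*, and for 8.69% of the tested genes. Both orders were counted on normalized CPM. In TPM the groups overlapped for *METTL14*, *WTAP* and *ZC3H13*, while *FTO* kept its order. The exact two-sided permutation test on log2 normalized CPM gave p = 0.10 for each of these 4. That is the smallest p-value that 3 libraries against 3 allow, and for the other 6 the test gave 0.20 or above. The labels call the replicates independent but do not say what was grown or lysed separately, so the p-values measure the spread between these libraries.

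**Figure D3:**
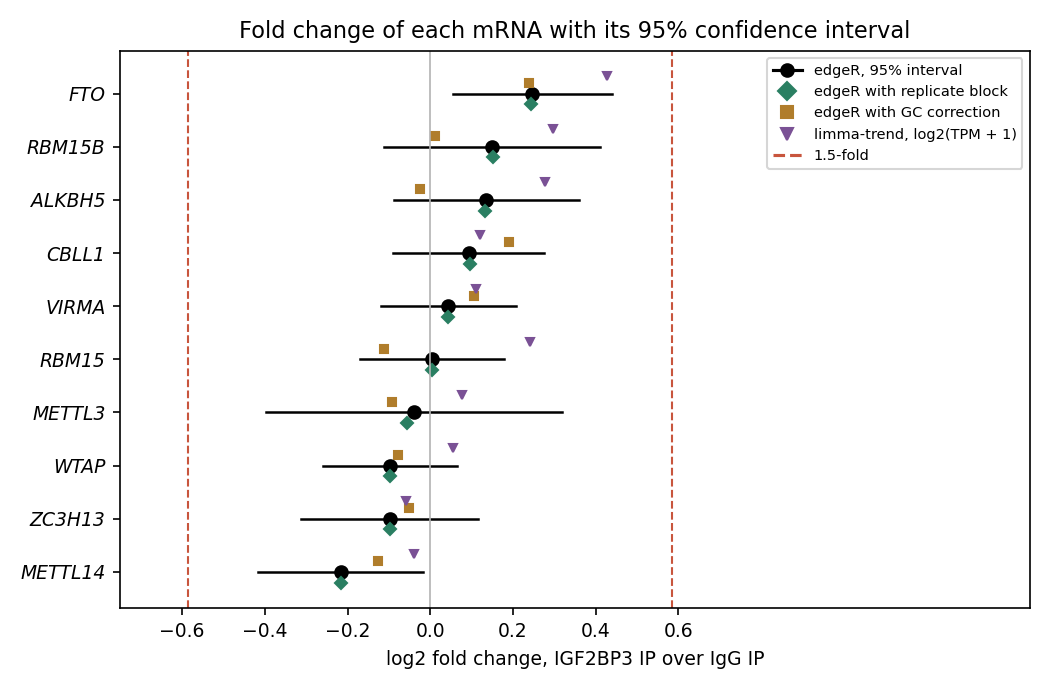
The log2 fold change of each mRNA, IGF2BP3 IP over IgG IP, sorted from the highest at the top. Circles with lines are edgeR values with their 95% confidence intervals, other symbols are the replicate block, the GC correction and limma-trend on TPM, and dashed lines mark 1.5-fold. All 10 intervals lie between the dashed lines, and those of *FTO* and *METTL14* do not include 0.

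Within libraries of the same number, 4 of the 10 mRNAs were higher in the IGF2BP3 IP in all 3 pairs and 3 were lower in all 3, where 25.1% and 23.5% of the tested genes did so. *FTO* was higher in the IGF2BP3 IP in all 3 pairs, by 0.32, 0.24 and 0.17 on the log2 scale in replicates 1 to 3, and *METTL14* was lower in all 3, at -0.28, -0.21 and -0.16. *WTAP* and *ZC3H13* were also lower in 3 of 3 pairs, while *VIRMA*, *RBM15B* and *CBLL1* were higher in 3 of 3. *METTL3*, *RBM15* and *ALKBH5* went both ways. For *ALKBH5* the difference was 0.31 in replicate 1 and 0.11 and -0.01 in the others, so the libraries numbered 1 held most of it.

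**Figure D4:**
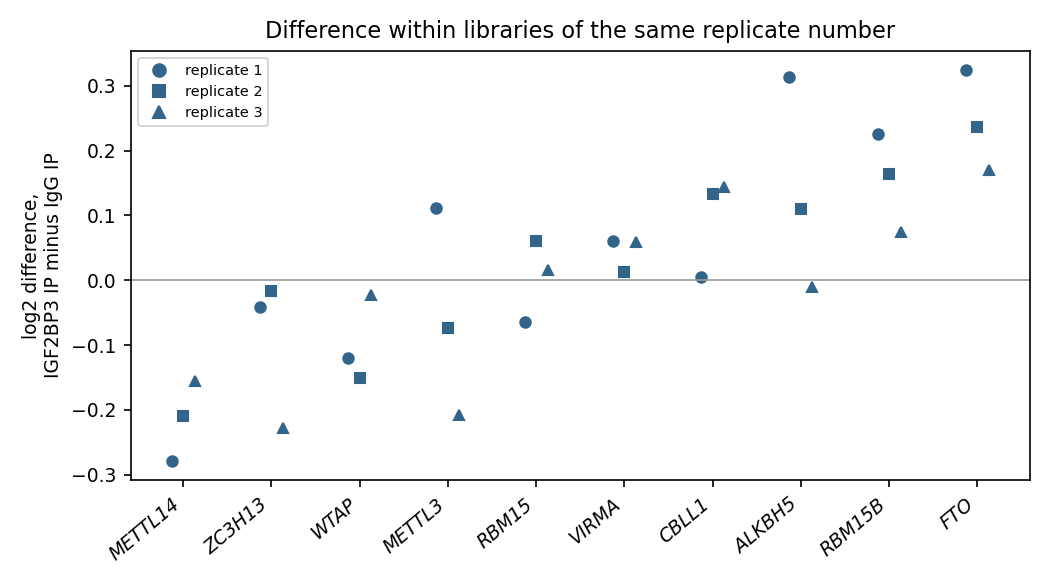
The log2 difference in normalized CPM between the IGF2BP3 IP and the IgG IP library of the same replicate number, 3 points for each mRNA, ordered by the fitted fold change. Points above 0 are higher in the IGF2BP3 IP. All 3 points lie below 0 for *METTL14*, *ZC3H13* and *WTAP*, and all 3 lie above 0 for *VIRMA*, *CBLL1*, *RBM15B* and *FTO*.

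Members were also compared in 4 pairs as ratios within a library, which do not depend on how libraries are scaled. The log2 count ratio of *VIRMA* to *WTAP* was -1.50, -1.49 and -1.49 with IgG, against -1.32, -1.32 and -1.41 with the IGF2BP3 antibody. It was thus higher by 0.14 in the IGF2BP3 IP, with no overlap between the groups (exact two-sided permutation test, p = 0.10, adjusted p = 0.40 over the 4 ratios). With TPM in place of counts the difference was 0.06. The ratio of *METTL3* to *METTL14* was -0.81 ± 0.13 (SD, n = 3) in the IgG IP and -0.65 ± 0.27 (SD, n = 3) in the IGF2BP3 IP and overlapped, with the highest value, -0.34, in IGF2BP3 IP replicate 1, without which the difference fell from 0.16 to 0.0049. The ratios of *RBM15* to *RBM15B* and of *ALKBH5* to *FTO* differed by -0.15 and -0.11 and overlapped too (exact permutation test, p = 0.50 for each). Without IgG IP replicate 1 the first was -0.01, and without IgG IP replicate 3 the second was -0.02.

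The transcripts differed in base composition and in the density of GGAC. Canonical transcripts were from 1980 bases (*METTL3*) to 11573 bases (*FTO*) long, beside a median of 3018 over the tested genes. Their GC content ran from 37.9% (*CBLL1*) and 38.3% (*METTL14*) to 55.8% (*RBM15B*) and 57.6% (*ALKBH5*), beside a median of 47.7%. GGAC was densest in *ALKBH5*, with 6.96 per kilobase, more than in 90.4% of the tested genes, and in *RBM15* with 6.23. It was sparsest in *CBLL1* with 2.26, *METTL14* with 2.41 and *FTO* with 2.51 per kilobase, below the median of 3.51. The canonical transcript of *FTO*, the highest of the 10 by fold change, held fewer GGAC per kilobase than that of most tested genes. Its coding part is 1515 of the 11573 bases, and which isoforms were measured is not given. The correlation of the log2 fold change with GGAC density was 0.21 over the 10 mRNAs and 0.23 over the tested genes, and with GC content 0.44 and 0.36. The points of these correlations are genes that share the same 6 libraries, and GGAC itself is rich in G and C.

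Over all tested genes the median log2 fold change rose from -0.14 in the lowest of 10 bins of GC content to 0.20 in the highest. After a correction per library both were at -0.02. The correction lowered *RBM15B* from 0.15 to 0.01, *ALKBH5* from 0.14 to -0.03 and *RBM15* to -0.11, the 3 with the highest GC content. It raised *CBLL1* from 0.09 to 0.19 and *VIRMA* from 0.04 to 0.11. *FTO*, whose canonical transcript at 46.3% GC lies near the median, moved from 0.25 to 0.24. None of the 10 was past the thresholds with the correction, and over all tested genes 82 RNAs were enriched.

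**Figure D5:**
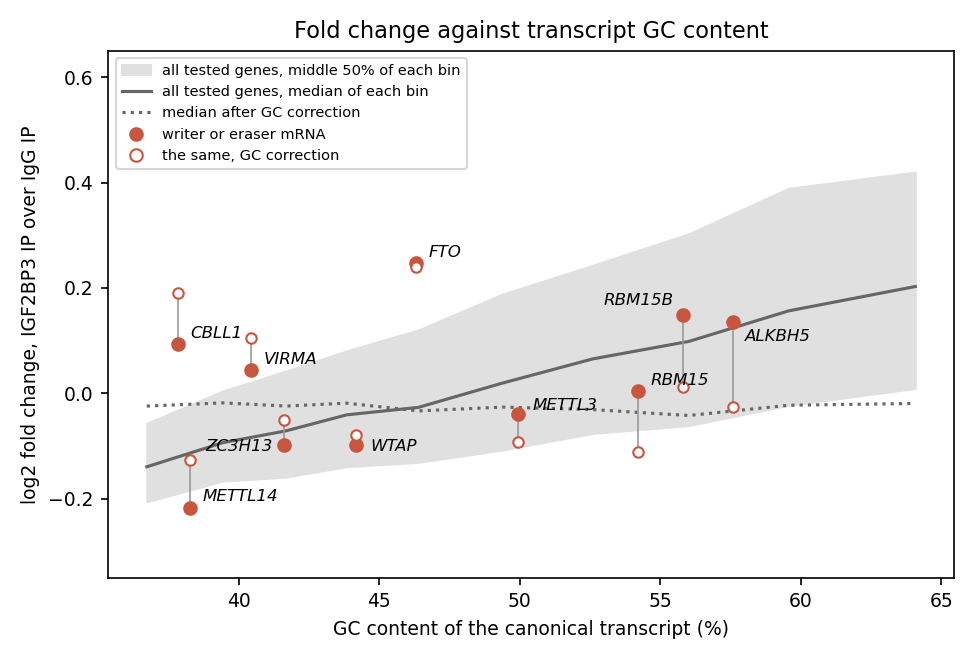
The log2 fold change of each mRNA against the GC content of its canonical transcript, before (filled) and after (open) the GC correction. The solid line and the grey band give the median and the middle 50% of all tested genes in 10 bins of GC content, and the dotted line is the median after correction. Before correction *FTO*, *CBLL1* and *VIRMA* lie above the band and *METTL14* lies below it, and *FTO* is the member that the correction moves least.

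Related genes were counted in the same fit, and none was called. Of 6 other RNA adenosine methyltransferases and their partners, 0 were enriched and 0 lower, with a median log2 fold change of -0.14. The highest was *PCIF1*, the enzyme that methylates the adenosine next to the cap, with 0.22 (adjusted p = 0.60 in edgeR), and the lowest *METTL5*, which methylates ribosomal RNA, with -0.20 (adjusted p = 0.45). Of 7 other ALKBH dioxygenases, 0 were past the thresholds, with a median of 0.07 and values from -0.14 (*ALKBH2*, adjusted p = 0.76) to 0.42 (*ALKBH7*, adjusted p = 0.59 on 41 to 85 counts). Of 3 genes that supply or clear the methyl donor, 0 were past the thresholds, with *AHCY* the highest at 0.11 (adjusted p = 0.72) and *MAT2B* the lowest at -0.21 (adjusted p = 0.45).

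Of 10 genes for m6A readers, 8 were tested and 0 were past the thresholds, with a median log2 fold change of -0.08. *YTHDF1*, a cytoplasmic reader, was the highest at 0.41 (standard error 0.14, adjusted p = 0.24 in edgeR), with every IGF2BP3 IP library above every IgG IP library. In the blocked fit *YTHDF1* had an adjusted p of 9.1e-05 at 0.42 on the log2 scale, under the 1.5-fold minimum. *YTHDC1*, the nuclear reader, was the lowest at -0.13 (adjusted p = 0.54). The mRNA of *IGF2BP3* itself held 1334 to 2060 counts and was at -0.04 on the log2 scale (adjusted p = 0.89), so the mRNA of the precipitated protein was not called either. Its paralogs *IGF2BP1*, with 0 to 1 counts per library, and *IGF2BP2*, with 0 counts, did not pass the filter on low counts.

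The genes whose normalized CPM followed 3 of the members most closely over the 6 libraries were looked up by Pearson correlation. For *METTL3* they were *VPS36*, *ERC2* and *NECTIN4*, each with r = 0.99, though *NECTIN4* rested on 9 to 19 counts per library, and 116 genes had r above 0.95. For *FTO* they were *PYGO2* (r = 0.996), *GPR108* (r = 0.993) and *B4GALT2* (r = 0.989), with log2 fold changes of 0.26, 0.43 and 0.37, and 68 genes had r above 0.95. For *ALKBH5* they were *D2HGDH* and *NOD1* (r = 0.99 and 0.98) and *CISH* (r = 0.98), of which *D2HGDH* and *NOD1* rested on 6 to 25 counts per library. With 6 libraries and 14507 genes, these are descriptions of likeness without a test.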

How the data were processed

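RNA from 3 IGF2BP3 IP and 3 IgG IP libraries of WaGa cells was sequenced in paired-end reads of 150 bases. Alignment by the authors was to GRCh38 (STAR 2.7.9a) and quantification used RSEM with gene models of a GENCODE release earlier than version 44. They deposited raw read counts per gene together with TPM and FPKM values. The program behind the counts and its use of strand are not given in the sources used here. Groups and replicate numbers came from the sample titles.

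From the deposited counts, genes were filtered (filterByExpr), TMM-normalized and tested with edgeR 4.0.16 (quasi-likelihood, R 4.3.3), with antibody as the single term, a fold change minimum of 1.5 and an adjusted p threshold of 0.05 over all tested genes. DESeq2 1.42.0, which the methods name, was an alternative, as were RLE size factors, library totals only, no filter, limma-trend from limma 3.58.1 on TPM in log2 with a pseudocount of 1 or 0.1, a loess correction for GC content (span 0.5), and each library left out. Leaving out both replicate 1 libraries was added after seeing the data. FPKM served as an alternative for the order of levels.

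The replicate numbers were taken to pair the libraries, since same-numbered libraries moved together around their group means (correlation over genes 0.57 for replicate 1, 0.28 for replicate 2 and 0.23 for replicate 3). Cross pairs of replicates 2 and 3 correlated at 0.28 and 0.27, so the block mainly sets replicate 1 apart. Exons, lengths, GC content and motifs were read from canonical transcripts in GENCODE version 44, in which 60481 of 60655 identifiers were found. Overlapping genes were read from version 44 as well, which is later than the release the authors used. The mRNAs, the related gene lists and the tests were chosen with earlier results of these data known. All 10 mRNAs, the highest and lowest gene of each related list, the 3 closest genes to *METTL3*, *FTO* and *ALKBH5*, and overlapping genes were named by a set rule, the noncoding overlapping genes as a group. Ratios were recomputed from TPM and with each library left out. Scripts were tested on simulated data. Intervals for single counts were not computed.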

Additional observations from a re-analysis of the deposited data

How the results depend on the processing

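Over 16 alternatives, 0 of 160 combinations of mRNA and alternative were past the thresholds, 141 kept the direction and 19 reversed it. The numbers of writers and erasers enriched or lower were 0 in every one, also at an unadjusted p-value under 0.05. *METTL14*, *VIRMA*, *RBM15B*, *ZC3H13*, *CBLL1* and *FTO* kept their direction throughout, with *FTO* from 0.18 to 0.43. *METTL3* reversed to 0.0031 with library totals only and to 0.077 and 0.079 in the limma-trend fits on TPM, and leaving out 1 library gave -0.23 (IGF2BP3 IP replicate 1) to 0.054 (IgG IP replicate 1), with values above 0 also without IGF2BP3 IP replicates 2 or 3. *WTAP* reversed to 0.055 and 0.056 in the limma-trend fits, which moved the median of all tested genes to 0.11 with a pseudocount of 1 and to 0.13 with 0.1. *RBM15*, at 0.0039 in the reported fit, reversed to -0.0062 with DESeq2, -0.0090 with RLE size factors, -0.0088 without the filter and -0.11 with the GC correction, with and without the block, and ran from -0.013 to 0.036 with 1 library left out. *ALKBH5* was -0.025 with the GC correction and -0.028 with the block as well. An adjusted p-value under 0.05 below the fold change minimum was reached in 5 combinations, *FTO* and *METTL14* with the replicate block, *FTO* (0.0057) and *CBLL1* (0.044) with the block and the GC correction, and *FTO* without both replicate 1 libraries (0.032). The cause was not tested.

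The number of all RNAs enriched, 169, was 281 with DESeq2, 359 without the filter, 517 with the replicate block, 82 with the GC correction, 273 with both, 0 in both limma-trend fits (476 and 617 at an unadjusted p-value under 0.05) and 466 without both replicate 1 libraries. It ran from 0 (without IGF2BP3 IP replicate 2, edgeR, 473 unadjusted) to 244 with 1 library left out, with 7 for IgG IP replicate 3, 19 for IgG IP replicate 2 and 23 for IGF2BP3 IP replicate 3. RNAs lower were 1 without the filter, 15 with the block, 32 with the block and the GC correction and 8 without both replicate 1 libraries. With the replicate block none of the 10 mRNAs was past the thresholds. Each of the 10 mRNAs rested on at least 385 counts in every library.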
